A study of Homo sapiens with 7 samples.

Results

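TRH, GHRH, NPY, CHGA, CHGB and PCP4 are 6 genes best known from neurons and endocrine glands, and their transcripts were followed here through cardiac cultures grown from the human embryonic stem cell line H1. They were picked by name, with their levels in these libraries already known, out of tables that list 23503, 22469 and 26940 genes, 21262 of them in all 3. All 6 have a row for DMSO and for day 11, and 5 have one for CHIR, so CHGA in CHIR cells was not analysed here. The values that led to the choice are given as a description and support nothing.

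The groups were cardiac cells at day 15 with CHIR (CHIR99021), a blocker of GSK3 that turns on canonical Wnt signalling; cardiac cells at day 15 with DMSO, its vehicle; and cardiac cells at day 11, for which the labels give no treatment. Each group was 1 droplet library of live-sorted cells, all from the H1 line, so no difference between groups has a replicate check and every interval below is a 95% interval for counting error only. The series title names atrioventricular canal cardiomyocytes made by Wnt signalling as its subject. H3K27ac and input chromatin of CHIR cells were not used here.

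TRH encodes thyrotropin-releasing hormone and GHRH growth hormone-releasing hormone, both peptides of the hypothalamus that act on the pituitary. NPY encodes neuropeptide Y, which sympathetic nerves of the heart release beside noradrenaline. Such peptides are made as longer precursors, packed into dense-core granules together with granins such as CHGA and CHGB, cut and trimmed there, and released when calcium rises. PCP4 is not secreted: it is a small protein that binds calmodulin, known in mouse from Purkinje cells of the cerebellum and from the conduction system of the heart.

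TRH and GHRH were highest in the same class of cells, and NPY in others, so the DNA just upstream of these 3 genes is printed first. Each line holds the 250 bases before the RefSeq start site on GRCh38.p14, read along the strand of the gene, at chr3:129974470-129974719 on the plus strand for TRH, chr20:37261815-37262064 on the minus strand for GHRH and chr7:24283940-24284189 on the plus strand for NPY. Capitals mark matches, on either strand, to 4 motifs. TGACG is the core of the cyclic AMP response element TGACGTCA. Nuclear receptors bind AGGTCA. The core of the TATA box is TATAA. A site of GATA factors reads AGATAA.
TRH: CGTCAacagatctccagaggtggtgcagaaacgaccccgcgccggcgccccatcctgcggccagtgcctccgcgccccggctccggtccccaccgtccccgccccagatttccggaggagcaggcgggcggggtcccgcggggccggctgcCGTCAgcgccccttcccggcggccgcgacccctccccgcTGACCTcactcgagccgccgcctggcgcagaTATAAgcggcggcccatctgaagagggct
GHRH: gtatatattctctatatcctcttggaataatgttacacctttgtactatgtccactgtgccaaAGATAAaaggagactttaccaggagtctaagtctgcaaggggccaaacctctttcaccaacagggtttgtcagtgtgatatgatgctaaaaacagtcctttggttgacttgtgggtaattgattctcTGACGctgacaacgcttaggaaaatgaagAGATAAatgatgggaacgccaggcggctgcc
NPY: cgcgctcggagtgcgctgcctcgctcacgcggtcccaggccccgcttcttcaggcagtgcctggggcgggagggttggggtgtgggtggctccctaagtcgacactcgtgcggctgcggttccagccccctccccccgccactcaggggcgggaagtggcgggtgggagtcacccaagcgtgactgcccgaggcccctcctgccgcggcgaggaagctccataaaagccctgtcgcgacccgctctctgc

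The TRH window held 2 TGACG matches, whose first bases lie 250 and 99 bases before the start, 1 AGGTCA match at 60 bases and 1 TATAA at 29 bases. In the GHRH window there were 1 TGACG match at 60 bases and 2 AGATAA matches at 187 and 31 bases. The NPY window had no capital, and none of the 3 windows held the full TGACGTCA. These letters are common: TGACG lies in 21.2% of 35116 RefSeq windows of the same length, AGGTCA in 12.1%, TATAA in 18.9%, AGATAA in 9.17% and TGACGTCA in 1.65%. None of the 3 windows held CTTTGAT, the core of TCF/LEF factors that answer to Wnt (2.26% of windows), AGGTGTGA of T-box factors (0.786%), the MEF2 motif (2.36%) or TNAAGTG of NKX2-5 (8.73%), searched on both strands. A match is a string of letters, not a bound site, and its absence says nothing of the factor.

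The genes lie at chr3:129974720-129977935 (TRH), chr20:37251086-37261814 (GHRH), chr7:24284190-24291862 (NPY), chr14:92922664-92935285 (CHGA), chr20:5911510-5925353 (CHGB) and chr21:39867438-39929392 (PCP4) on GRCh38.p14. In that annotation TRH overlaps the pseudogene LOC124906284 and NPY the long noncoding RNA LOC107986777, and no source at hand tells how the authors' counting treated such overlaps.

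The libraries held 5607 cells with CHIR, 3795 with DMSO after the removal of called doublets, and 5682 at day 11, with median depths of 12687, 14887 and 12687 UMIs (unique transcripts counted) a cell. Ribosomal protein genes took 33.3%, 25.3% and 15.5% of all UMIs in the same order. Cells were sorted into classes by summed markers: muscle cells numbered 1583, 2169 and 3922, and mesenchymal cells 2800, 949 and 784. Heart muscle markers summed to 15463, 16922 and 15780 CPM (UMIs of a gene per 1000000 UMIs of the class) in muscle cells, against 574, 1027 and 947 CPM in mesenchymal cells, which instead had 4187, 4085 and 4671 CPM of collagen and other matrix markers. Endoderm cells reached 50 at day 11 only, where there were 83. Libraries shared between 3 and 6 cell barcodes by pair.

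Across classes the 6 genes fell into 3 patterns. TRH and GHRH were transcripts of muscle cells, highest with DMSO. Among classes of at least 50 cells, NPY was highest in endoderm cells at day 11 and in mesenchymal cells with DMSO. CHGB and PCP4 were highest in mesenchymal cells of the CHIR library, and CHGA was close to absent from both libraries where it was counted.

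TRH was the broadest of the releasing hormones. In muscle cells it stood at 55.1 CPM with CHIR (interval 52.2 to 58.1), 250 CPM with DMSO (245 to 256) and 81.4 CPM at day 11 (78.9 to 84.0). Muscle cells held 82.8%, 95.7% and 92.2% of all TRH UMIs of their library, in the same order. DMSO was highest by more than counting error, while the order of CHIR and day 11 depends on the scaling.

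Mesenchymal cells had 1.37, 3.29 and 3.40 CPM of TRH in the CHIR, DMSO and day 11 libraries. The muscle level was 40.1-fold (30.4 to 54.0) the mesenchymal level with CHIR, 76.0-fold (59.2 to 99.2) with DMSO and 24.0-fold (17.9 to 32.9) at day 11. With a mesenchymal gate of 40 marker UMIs per 10000 the CHIR and day 11 values were 65.3-fold and 51.3-fold, and with one of 10 the DMSO value was 46.3-fold. At least 2-fold higher in muscle cells were 15%, 23.8% and 25% of all genes with enough counts, and at least 2-fold lower were 12.9%, 10.1% and 11%. In CHIR mesenchymal cells there were 1.68 TRH UMIs per 100 UMIs of the muscle gene TNNT2, against 1.504 in CHIR muscle cells, and at day 11 the figures were 2.76 in mesenchymal and 2.77 in muscle cells. With DMSO it was 3.34 per 100 in mesenchymal and 8.42 in muscle cells. Cells outside every gate had 3.04, 14.4 and 11.1 TRH UMIs per 100 of TNNT2 with CHIR, DMSO and day 11, more than the muscle cells of each library. The part of carry-over from muscle cells in these levels was not tested.

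The share of muscle cells with a TRH transcript was also highest with DMSO. It was 37.4% with CHIR, 60.1% with DMSO and 39.2% at day 11. With every cell thinned to 5000 UMIs, which left out 21, 67 and 146 shallower muscle cells, it was 18.1%, 44.2% and 25.3%. Endothelial cells were set beside them but were not shown to lack the gene. They had a TRH UMI in 2 of 35 CHIR cells, 1 of 18 DMSO cells and 3 of 49 day 11 cells (5.71%, 5.56% and 6.12%). Their median depths were 13219, 18620 and 12518 UMIs, against 14803, 13155 and 11708 in muscle cells. Cells with 10 or more TRH UMIs were 15 of 1583 with CHIR, 203 of 2169 with DMSO and 28 of 3922 at day 11. These 203 DMSO cells, 9.36% of the muscle cells, held 54.1% of the TRH UMIs of their class, and the highest single cell had 81.

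GHRH was a transcript of a small part of the DMSO muscle cells. It stood at 0.120 CPM with CHIR (3 UMIs in all), 22.6 CPM with DMSO (20.9 to 24.4) and 2.27 CPM at day 11 (1.86 to 2.75). Its UMIs lay in 3 of 1583, 177 of 2169 and 75 of 3922 muscle cells. DMSO muscle cells held 98.0% of the 668 GHRH UMIs of that library, and 17 cells with 10 or more UMIs held 50.8% of those in muscle. Mesenchymal cells had 0, 3 and 1 UMIs. None of the 83 day 11 endoderm cells had one, which allows a share of cells with a UMI of up to 3.61% (3 counts of the total), against 1.91% of day 11 muscle cells, so at day 11 a difference between these classes was not detectable at this depth.

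**Figure D1:**
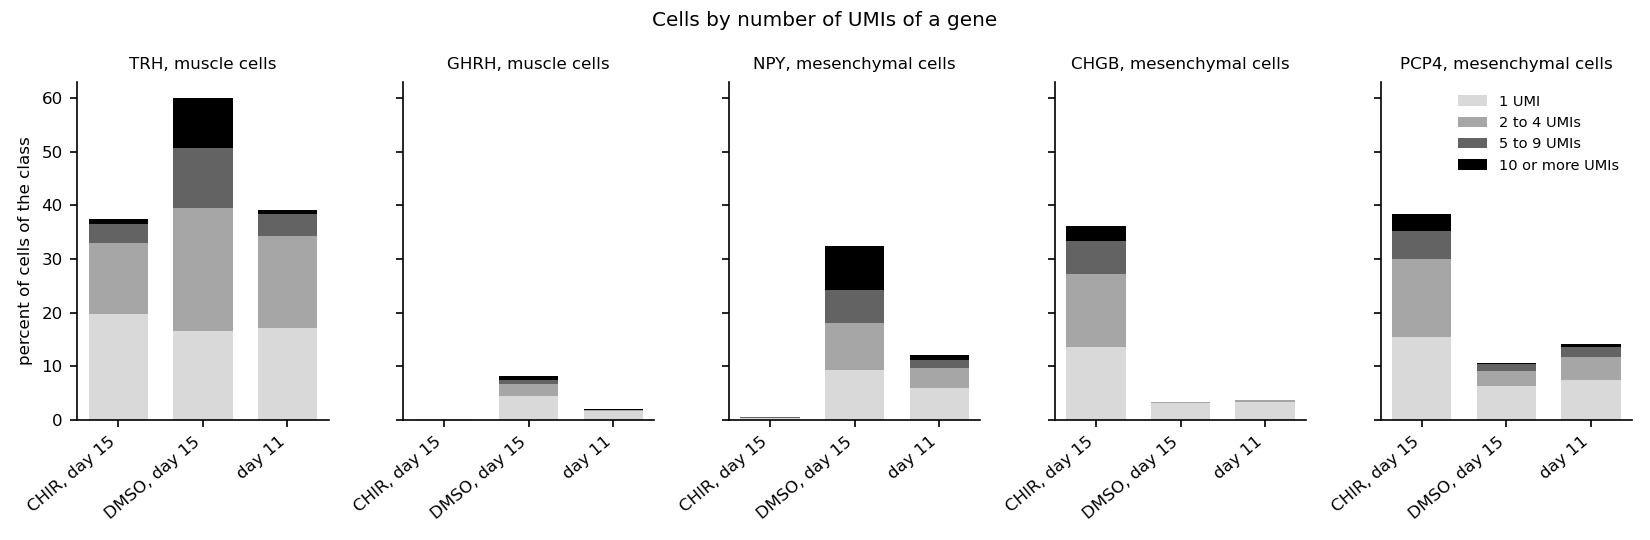
Percent of the cells of a class (linear axis) with 1, 2 to 4, 5 to 9 and 10 or more UMIs of a gene, for TRH and GHRH in muscle cells and NPY, CHGB and PCP4 in mesenchymal cells, each with CHIR, DMSO and day 11 from left to right and without thinning. Bars for TRH reach 37.4%, 60.1% and 39.2%, and those for CHGB 36.2%, 3.27% and 3.70%.

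NPY stood apart from the releasing hormones. In mesenchymal cells it was at 0.608 CPM with CHIR (23 UMIs), 132 CPM with DMSO (127 to 138) and 25.6 CPM at day 11 (22.9 to 28.5). Muscle cells had 0.0399 CPM with CHIR (1 UMI), 8.04 CPM with DMSO (7.04 to 9.14) and 22.2 CPM at day 11 (20.9 to 23.6). The CHIR library as a whole had 34 NPY UMIs, against 3381 with DMSO and 3714 at day 11.

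The 83 endoderm cells of day 11, marked by TTR, AFP and apolipoproteins, had the highest NPY level of any class of 50 or more cells, 981 CPM (930 to 1034), with a UMI in 74 cells. They were 1.46% of the cells and held 37.4% of the NPY UMIs. With DMSO only 15 endoderm cells were found, of which 8 had NPY, and 195 of their 228 UMIs came from 1 cell. Day 11 cells outside every gate had 141 CPM of NPY and 674 CPM of endoderm markers, against 12.7 CPM of these markers in the same class with CHIR and 92.6 CPM with DMSO.

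DMSO mesenchymal cells with NPY were a distinct minority by count. A UMI was found in 307 of 949 cells, and 77 cells with 10 or more held 71.8% of the UMIs of the class. At 5000 UMIs a cell the share with NPY was 0.250% with CHIR, 19.5% with DMSO and 6.03% at day 11. Endothelial cells with a UMI were 0 of 35, 0 of 18 and 4 of 49, which allows up to 8.57% and 16.7% (3 counts of the total) in the first 2 libraries. Cells past a gate of epicardial markers had 141 CPM and the other DMSO mesenchymal cells 131 CPM, a ratio of 1.07 (0.942 to 1.22). At day 11 the cells past that gate were the lower ones, at 10.1 CPM against 28.0 CPM.

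In day 11 muscle cells 12.5% had an NPY UMI, close to the 12.1% of mesenchymal and the 8.16% of endothelial cells (interval 2.27% to 19.6%). Neither class was shown to lack NPY, and 7 of the 10 endothelial UMIs lay in 1 cell. They do not tell whether the muscle share is background. In muscle 29 cells had 5 or more NPY UMIs, and the highest had 110. The NPY UMIs of day 11 muscle cells stood at 164 per 100 UMIs of the endoderm gene TTR, against 10.4 per 100 in endoderm cells. Of the 188 muscle cells with 2 or more NPY UMIs, 171 had no TTR UMI, as did 3159 of the 3430 without NPY. Endoderm markers summed to 294 CPM in the 188 cells and 121 CPM in those without NPY. Muscle cells rich in NPPA had 1.89 CPM of NPY (3 UMIs in 129 cells) and the other muscle cells 22.9 CPM, at depths of 12048 and 11697 UMIs. In DMSO muscle cells the 34 with 2 or more NPY UMIs had 7744 CPM of muscle markers and 969 CPM of mesenchymal markers, against 17299 and 357 CPM in those without. The part of carry-over from other cells in the muscle level was not tested.

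CHGA and CHGB are the main granins, acidic proteins that pack hormones into granules. CHGA had 2 UMIs in the whole DMSO library and 2 at day 11, or 0.0334 CPM (up to 0.121) and 0.0264 CPM (up to 0.0952). Endoderm cells of day 11 had none, so the NPY there came with no CHGA UMI. CHGB over all cells was at 53.8 CPM with CHIR, 1.49 CPM with DMSO and 0.804 CPM at day 11.

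In mesenchymal cells CHGB reached 97.3 CPM with CHIR (94.1 to 100), against 1.70 CPM with DMSO (1.16 to 2.40) and 2.49 CPM at day 11 (1.71 to 3.50). The UMIs numbered 3679, 32 and 33. A CHGB UMI was found in 1014 of 2800 CHIR cells, 31 of 949 DMSO cells and 29 of 784 day 11 cells. With thinning the shares were 23.3%, 0.949% and 1.41%. The highest DMSO cell had 2 UMIs and the highest CHIR cell 45, and 253 CHIR cells had 5 or more.

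In CHIR muscle cells CHGB was at 4.83 CPM, 20.2-fold (16.8 to 24.4) below the mesenchymal cells of that library. A UMI was seen in 5.88% of these muscle cells and in 11.4% of the 35 endothelial cells (3.20% to 26.7%). The muscle share was no higher than the endothelial one and was not read as expression. Endothelial cells were not shown to lack CHGB and could also pass the mesenchymal gate, so they cannot tell background from expression. Mesenchymal markers summed to 776.5 CPM in CHIR endothelial cells and 518.4 CPM in CHIR muscle cells. Per 100 UMIs of the collagen gene COL3A1 there were 2.82 CHGB UMIs in CHIR muscle and 7.72 in CHIR mesenchymal cells.

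PCP4, like CHGB, was highest in CHIR mesenchymal cells, but it was also found in the other libraries. Mesenchymal cells had 112 CPM with CHIR (109 to 116), 12.3 CPM with DMSO (10.7 to 13.96) and 22.9 CPM at day 11 (20.4 to 25.6). Cells outside every gate had 45.8, 5.44 and 29.1 CPM in the same order. At day 11 the highest class was endoderm at 30.4 CPM (22.0 to 41.0), where CHGB had no UMI. In muscle cells the levels were 10.1, 1.45 and 2.93 CPM, which is 11.1-fold (9.79 to 12.7), 8.47-fold (6.08 to 12.1) and 7.80-fold (6.36 to 9.61) below the mesenchymal level of the same library. Over other gates the DMSO value ran between 3.92-fold and 12.8-fold and the day 11 value between 2.91-fold and 12.4-fold, and the CHIR value was 19.7-fold with a mesenchymal gate of 10. A UMI was found in 8.72% of CHIR muscle cells and in 20% of the 35 CHIR endothelial cells (8.44% to 36.9%). These endothelial cells stood at 30.9 CPM of PCP4, with up to 9 UMIs in a cell, and were not shown to lack the gene. They cannot tell background from expression, and the muscle share was again not read as expression.

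Within CHIR mesenchymal cells, CHGB and PCP4 showed little relation. PCP4 had a UMI in 41.6% of the 1014 cells with CHGB and in 36.6% of the 1786 without, at median depths of 12648 and 11322 UMIs. Its summed level was 101 CPM in the cells with CHGB and 119 CPM in those without, so the small gap in shares went against the CPM and no order is read from it. TRH was found in 84.2% of the 177 DMSO muscle cells with GHRH and in 58.0% of the 1992 without, at depths of 15768 and 12813 UMIs, and its level was 556 CPM against 215 CPM. NPY in the same muscle cells went the other way from TRH, at 3.26 CPM in cells with a TRH UMI and 15.7 CPM in cells without.

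The comparison of CHIR with DMSO asks how these genes stood with the Wnt agonist at the same day. In muscle cells, 3 of the 5 members counted in both were at least 2-fold lower with CHIR and 2 at least 2-fold higher. Of all 16342 genes with 20 or more UMIs over both, 15.5% were lower and 8.93% higher by that fold. Since the members were chosen with this contrast known, nothing is read from their count.

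TRH in muscle was 4.54-fold lower with CHIR (4.29 to 4.81), a ratio of 0.220. GHRH had a ratio of 0.00529 (0.00109 to 0.0155), from 3 UMIs with CHIR and 655 with DMSO. The NPY ratio of 0.00496 (0.000125 to 0.0279) rests on 1 UMI and 233 UMIs. CHGB was 5.18-fold higher (3.39 to 8.18) and PCP4 6.96-fold higher (5.01 to 9.90) in muscle cells. As given above, their shares of CHIR muscle cells were no higher than those of endothelial cells. Moving the muscle or the mesenchymal gate to 40 marker UMIs per 10000 took the CHGB ratio to 13.8 or 10.4, and moving the mesenchymal gate to 10 took the PCP4 ratio to 4.31.

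Mesenchymal cells showed the larger CHGB difference, 57.2-fold higher with CHIR (40.4 to 83.7). PCP4 was 9.13-fold higher there (7.998 to 10.5), and NPY was 218-fold lower (145 to 344), or 415-fold with a mesenchymal gate of 40. TRH was 2.40-fold lower (1.63 to 3.53), at the low levels given above, and between 1.58-fold lower with a muscle gate of 10 and 3.69-fold lower with a mesenchymal gate of 10. Of 15912 genes in this comparison 20.4% were at least 2-fold higher with CHIR and 13.1% lower.

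**Figure D2:**
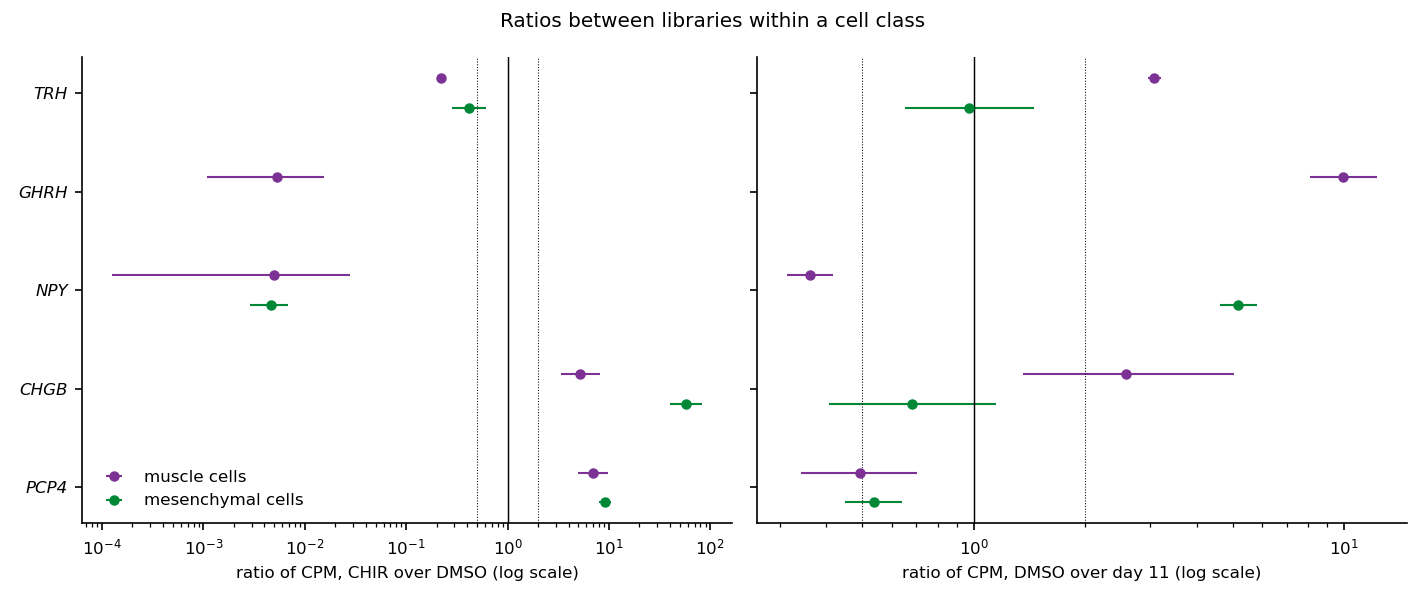
Ratio of CPM (log axis) for 5 genes in muscle and in mesenchymal cells, CHIR over DMSO on the left and DMSO over day 11 on the right; bars are exact 95% intervals for counting error, dotted lines mark 2-fold, and GHRH in mesenchymal cells is left out because both counts were 3 or fewer. With CHIR, CHGB and PCP4 lie to the right of 1 in both classes and TRH and NPY to the left; NPY over day 11 lies on opposite sides of 1 in the 2 classes.

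Setting DMSO against day 11 compares a later with an earlier day, 15 with 11, and a stated with an unstated treatment, which cannot be told apart. In muscle cells TRH was 3.07-fold higher with DMSO (2.96 to 3.20) and GHRH 9.94-fold higher (8.09 to 12.3). CHGB was 2.58-fold higher (1.36 to 5.04) on 27 and 17 UMIs, and its ratio turned to 0.969 with a muscle gate of 40 and was 1.31 with a mesenchymal gate of 10. NPY was 2.76-fold lower with DMSO (2.39 to 3.20), or 5.79-fold with a muscle gate of 40, and PCP4 2.02-fold lower (1.42 to 2.93). At least 2-fold higher were 3.77% of 18498 genes, and 38.4% were lower.

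The median gene of that comparison had a log2 ratio of -0.66, and scaling by TMM factors moved it by 0.63. Under that scaling TRH was 4.77-fold and GHRH 15.4-fold higher with DMSO, while the ratios of NPY and PCP4 were 0.562 and 0.767 and no longer past 2-fold. In mesenchymal cells NPY was 5.17-fold higher with DMSO (4.62 to 5.81), or 3.16-fold with a mesenchymal gate of 40, against 3.2% of 15618 genes higher and 38.5% lower by 2-fold. TRH, CHGB and PCP4 had ratios of 0.970, 0.683 and 0.537 there; those of TRH and CHGB became 1.44 and 1.01 with TMM factors, so no direction is given for these 2.

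CHIR set against day 11 shares its libraries with both comparisons above, and its muscle values stand beside them only. TRH had a ratio of 0.677 (0.636 to 0.720), which became 1.10 with TMM factors, so its direction is not given. GHRH was at 0.0526 (0.0107 to 0.158) on 3 and 107 UMIs, and NPY at 0.00180 (4.54e-05 to 0.0100) on 1 and 1045 UMIs. CHGB was 13.4-fold (8.01 to 23.7) and PCP4 3.44-fold (2.79 to 4.27) higher with CHIR. At least 2-fold higher were 5.14% of 18466 genes and 42.1% lower, around a median log2 ratio of -0.75. With TMM factors CHGB was 21.6-fold and PCP4 5.57-fold higher, and CHGB was between 7.55-fold and 28.0-fold higher with mesenchymal gates of 10 and 40. In mesenchymal cells CHGB was 39.1-fold (27.8 to 56.8) and PCP4 4.90-fold (4.36 to 5.53) higher with CHIR, where 6.57% of 16483 genes were higher and 32% lower by 2-fold. Moving the mesenchymal gate to 40 took the CHGB ratio to 67.2, and moving the muscle gate to 10 took the PCP4 ratio to 9.12.

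Over all cells of a library, where no gate enters, the same directions held for CHIR against DMSO. TRH was at 20.6 CPM with CHIR and 127 CPM with DMSO, 6.15-fold lower (5.83 to 6.49), and NPY at 0.419 and 56.5 CPM. CHGB was 36.2-fold higher (29.3 to 45.1) and PCP4 10.2-fold higher (9.19 to 11.3). Of 18672 genes, 12.3% were at least 2-fold higher with CHIR and 15.8% lower. These sums mix classes that made up different parts of each library, muscle being 28.2% of CHIR, 57.1% of DMSO and 69.0% of day 11 cells.

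For DMSO against day 11 over all cells, TRH was 2.31-fold (2.23 to 2.40) and GHRH 6.83-fold (5.63 to 8.34) higher, among 3.57% of 19957 genes higher and 41% lower by 2-fold. NPY was at 56.5 CPM with DMSO and 48.9 CPM at day 11, a ratio of 1.15 that became 0.954 as a mean of per-cell CPM, so its direction is not given. For CHIR against day 11, CHGB was 66.9-fold (52.0 to 87.7) and PCP4 5.99-fold (5.57 to 6.45) higher, among 5.85% of 20318 genes higher and 41.9% lower. With TMM factors these 4 ratios were 3.72, 11.0, 109 and 9.79.

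Among DMSO muscle cells, TRH and GHRH were unevenly spread. Cells with a transcript of SHOX2, a transcription factor of the sinus node, had 831 CPM of TRH and the other muscle cells 212 CPM, a ratio of 3.93 (3.71 to 4.16). GHRH was at 91.4 CPM in SHOX2 cells and 18.0 CPM in the others, a ratio of 5.07 (4.22 to 6.06). In DMSO muscle 17 cells held 50.8% of the GHRH UMIs, so few cells can set this ratio. Its interval leaves out the spread between cells. The 125 SHOX2 cells were 5.76% of the muscle cells and held 20.7% of its TRH and 25.2% of its GHRH UMIs. Leaving SHOX2 cells out of both libraries gave a CHIR over DMSO ratio of 0.257 for TRH.

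Muscle cells rich in NPPA, the natriuretic peptide of atrial and early chamber muscle, also had higher summed levels of both. TRH was at 441 CPM in the 272 NPPA cells with DMSO and 224 CPM in the others, a ratio of 1.97 (1.87 to 2.09). For GHRH the values were 45.3 and 19.4 CPM, a ratio of 2.33 (1.94 to 2.79). With 17 DMSO muscle cells holding 50.8% of the GHRH UMIs, few cells can set that ratio too. NPY was at 1.41 CPM in NPPA cells (5 UMIs) and 8.97 CPM in the others. Only 4 cells were in both the SHOX2 and the NPPA group.

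At day 11 the 129 NPPA cells had 157 CPM of TRH and the others 78.8 CPM, a ratio of 1.99 (1.74 to 2.26), much the size seen with DMSO. With CHIR, 7 muscle cells had SHOX2 and 13 passed the NPPA gate, too few to describe. No library had 50 muscle cells past the gate for MYL2, a ventricular myosin light chain.

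TBX2 and TBX3 are repressors of chamber genes in the atrioventricular canal, and cells with at least 2 of their UMIs together were compared with the rest. TRH was at 53.0 CPM in TBX cells and 58.3 CPM in the others with CHIR, a ratio of 0.910 (0.817 to 1.01). With DMSO the ratio was 0.966 (0.910 to 1.02) and at day 11 it was 1.05 (0.978 to 1.13), so no difference past counting error was found in any library. GHRH with DMSO summed to 7.80 CPM in the 404 TBX cells and 26.1 CPM in the others, a ratio of 0.299 (0.214 to 0.408). As with SHOX2 and NPPA, few cells can set this GHRH ratio. At day 11 GHRH was at 2.31 and 2.26 CPM, a ratio of 1.02 (0.643 to 1.58). With CHIR, TBX cells had 6.34 CPM of CHGB and the others 2.52 CPM, and 12.5 and 6.44 CPM of PCP4, at depths of 16305 and 13383 UMIs. At day 11 PCP4 went the other way, at 1.43 CPM in TBX cells and 3.48 CPM in the others, a ratio of 0.412 (0.236 to 0.680). These muscle levels of CHGB and PCP4 with CHIR are those whose shares of cells were no higher than in endothelial cells. In cycling muscle cells the TRH level over the rest was 1.43-fold (1.23 to 1.64) with CHIR, 1.11-fold (1.03 to 1.19) with DMSO and 1.41-fold (1.26 to 1.58) at day 11. These intervals leave out the spread between cells. With DMSO 203 muscle cells held 54.1% of the TRH UMIs, so no difference is read from the 1.11-fold there.

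**Figure D3:**
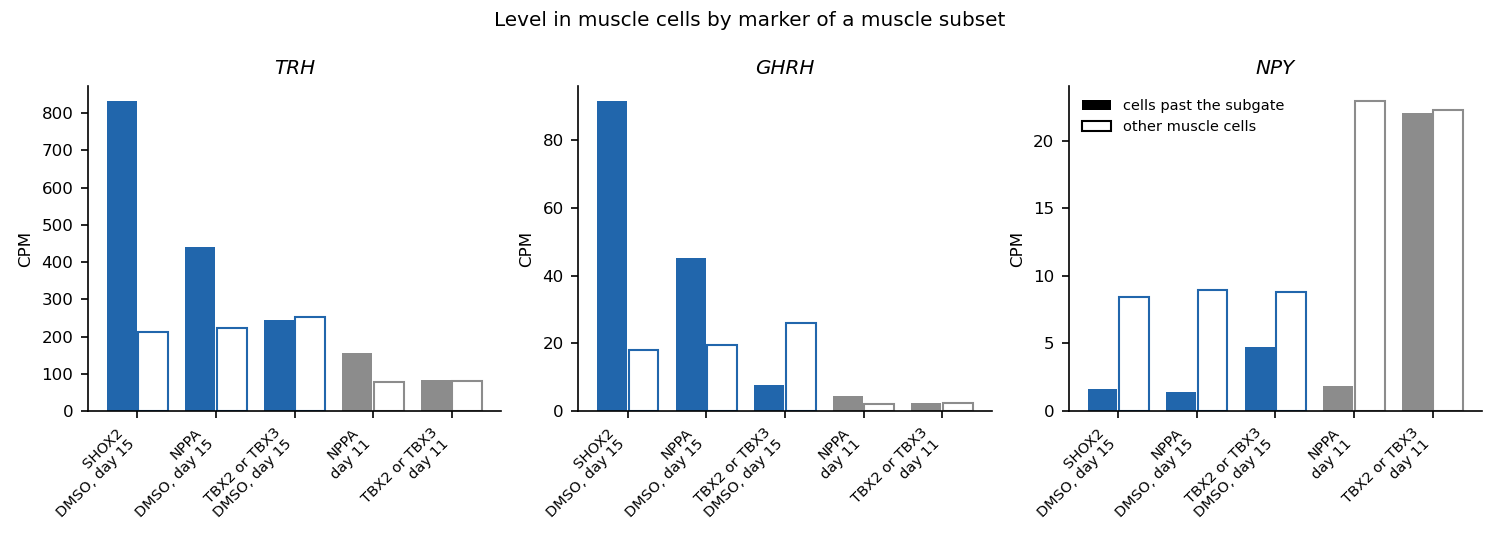
Level of TRH, GHRH and NPY in CPM (bars from 0) in muscle cells past a marker gate (filled) and in the other muscle cells of the same library (open), for SHOX2, NPPA and TBX2 or TBX3 with DMSO and for the last 2 at day 11. TRH and GHRH are higher in SHOX2 and NPPA cells with DMSO, where NPY is lower; each bar is a sum over cells of 1 library and carries no error bar.

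The genes that led in cells with 2 or more UMIs of a member over cells with none were picked after their values were seen. In DMSO muscle cells TRH went with NPPA (496 CPM in 944 cells against 45.8 CPM in 865), DKK1, NPPB, HAMP and IGFBP6. At day 11 it went with CRHBP, DKK1, CSMD1, LGALS3 and NPPA, and with CHIR with NR2F2, UBE2C, ASPM, CENPE and BMP2, of which UBE2C, ASPM and CENPE are mitotic genes. DKK1, a secreted Wnt antagonist, was at 91.3 against 24.4 CPM with DMSO and 65.5 against 17.7 CPM at day 11.

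GHRH in DMSO muscle went with CXCL14, CALB2, ACTA1, NR2F2 and ISL1. ISL1, a factor of cardiac progenitors and the sinus node, was at 129 CPM in the 80 cells with GHRH and 27.3 CPM in the 1992 cells without, and NR2F2, an atrial factor, at 108 and 22.7 CPM. The cells with GHRH were deeper, at a median of 16396 against 12813 UMIs.

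NPY in DMSO mesenchymal cells went with PRPH, PPP2R2B, PLAC9, RGCC and OGFRL1. PRPH, the neuronal intermediate filament peripherin, was at 289 CPM in the 219 cells with NPY and 70.2 CPM in the 642 without. At day 11, the 188 muscle cells with 2 or more NPY UMIs had 106 CPM of TTR against 8.11 CPM in those without. As given above, 171 of these 188 had no TTR UMI, so few cells made up that level. In CHIR mesenchymal cells CHGB went with AMIGO2, RFLNB, FST, RGS4 and PITX1, of which FST, a secreted antagonist of activin and BMP ligands, was at 402 and 111 CPM and the homeobox gene PITX1 at 344 and 103 CPM. PCP4 went with PODXL, NQO1, TNFRSF12A, DIAPH3 and CSRP1, at depths of 14796 UMIs in the cells with it and 11184 in those without. In CHIR muscle the 39 cells with 2 or more PCP4 UMIs were led by SPRR2F, PRPH, DCN, IGFBP3 and LUM, of which DCN and LUM are matrix genes, and had a median of 24628 UMIs against 14456.

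Since the members are genes of neurons and gland cells, 16 neural and neuroendocrine markers were summed. In mesenchymal cells they came to 366 CPM with CHIR, 340 CPM with DMSO and 123 CPM at day 11, and in muscle cells to 50.4, 45.7 and 13.9 CPM. TUBB3, PRPH and STMN2 made up most of this. TUBB3 was at 196, 93.6 and 62.6 CPM in mesenchymal cells, PRPH at 158, 142 and 42.0 CPM, and STMN2 at 8.33, 102 and 15.4 CPM. Other neuronal and chromaffin genes were low in whole libraries. DCX, a gene of migrating neurons, had 157 UMIs with CHIR, 59 with DMSO and 160 at day 11. PHOX2A, a factor of sympathetic and chromaffin cells, had 49 with DMSO, 8 of them in muscle and 1 in mesenchymal cells, and 3 at day 11. ELAVL3 had 38, 26 and 52 UMIs with CHIR, with DMSO and at day 11, TH 1 with CHIR and 1 at day 11, and DBH 1 with DMSO and 5 at day 11. Rows for INSM1 and NEUROD1 were not analysed here.

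By likeness of pattern, measured as Pearson's r of log2(CPM + 1) over the 13 library and class sums of at least 50 cells among 5229 genes that reached 50 CPM in at least 1 sum, the nearest to TRH were CRIP1 (0.96), COX7B (0.95) and PNKD (0.95). Those of GHRH were HAMP (0.90), CETN2 (0.88) and CITED2 (0.86), and those of NPY were GABRB1, BTF3L4 and ANXA7 (0.96 each). CHGB was nearest to TMEM70 (0.95), CAMLG (0.94) and RBMX2 (0.92), and PCP4 to P4HB (0.96), ODC1 (0.96) and FLRT3 (0.95). The 13 sums share 3 libraries and their depth, and these r values describe them only.

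The other parts of the secretory pathway are given by list for muscle cells, CHIR against DMSO, where 8.93% of all genes tested were at least 2-fold higher and 15.5% lower. All lists were chosen with earlier results of these data known, so their counts are a description only. Of 12 genes of prohormone processing, not all of them enzymes, 10 had enough counts. Of these, 2 were at least 2-fold higher and 2 lower, with a median log2 ratio of -0.22 against -0.02 for all genes tested. CPE, the carboxypeptidase of granules, was at 93.7 CPM with CHIR and 85.8 CPM with DMSO. PAM, which amidates peptides such as TRH and NPY, was at 29.3 and 43.7 CPM, CPD at 17.9 and 21.7 CPM and the convertase FURIN at 11.4 and 12.8 CPM. PCSK1 and PCSK2, the convertases of neuroendocrine granules, did not have the counts for a ratio. The 4 genes past 2-fold, named after their values were seen, were PCSK6 (8.29 and 2.76 CPM) and PCSK7 (28.9 and 13.2 CPM), which were higher with CHIR, and SCG5 (5.46 and 23.6 CPM) and QPCT (0.199 and 1.86 CPM), which were lower.

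Of 17 genes of regulated exocytosis 13 were measured, with 1 higher and 1 lower by 2-fold, near or under the shares of all genes, and a median of -0.24. VAMP2, a vesicle SNARE, was at 205 CPM with CHIR and 206 CPM with DMSO, CADPS, a priming factor of dense-core granules, at 28.3 and 26.6 CPM, and SYT1, a calcium sensor, at 8.01 and 10.4 CPM. RAB3B, a GTPase of secretory vesicles, was the lower one, at 1.55 and 13.0 CPM. The higher one was BAIAP3, at 2.07 and 1.00 CPM. In mesenchymal cells CADPS was at 26.3 CPM with CHIR and 0.425 CPM with DMSO, on 994 and 8 UMIs. That comparison was added after seeing the data, and 20.4% of all genes were at least 2-fold higher in it.

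Of 7 other granins and granule proteins only SYP, a vesicle membrane protein, had enough counts in muscle, at 0.518 CPM with CHIR and 2.31 CPM with DMSO. PTPRN2, SCG3 and PTPRN were at 0.0399, 0.199 and 0.0798 CPM with CHIR and 0.207, 0.172 and 0.172 CPM with DMSO. SCG2, a granin like CHGB, was at 0.264 CPM with CHIR and 9.51 CPM with DMSO in mesenchymal cells, the reverse of CHGB there. These levels rest on 10 and 179 UMIs, and 13.1% of all genes were at least 2-fold lower there. SCG2 was not among the 4 of its list with most muscle UMIs.

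Receptors for the 3 peptides were scarce. NPY1R was at 3.19 CPM with CHIR and 3.002 CPM with DMSO in muscle cells, and NPY5R at 0.558 and 1.31 CPM, the 1 lower of 2 measured. At day 11 GHRHR had 0.276 CPM and TRHR 0.255 CPM in muscle cells.

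Of 24 other peptide hormones, 14 were measured in muscle, and 9 were lower and 2 higher by 2-fold, against 15.5% and 8.93% of all genes. The median log2 ratio was -1.99 against -0.02 for all genes tested. Since this list was chosen with earlier results of these data known, nothing is read from its counts or its median. The natriuretic peptides NPPA and NPPB were at 32.7 and 25.4 CPM with CHIR, against 269 and 94.6 CPM with DMSO. IGF2, a growth factor, was at 11.4 CPM with CHIR and 51.6 CPM with DMSO, and ADM, the vasodilator adrenomedullin, at 18.7 and 41.9 CPM. The 2 that were higher, named after their values were seen, were PDYN, which encodes the opioid precursor prodynorphin, at 8.81 CPM with CHIR and 0.414 CPM with DMSO, a ratio of 21.3 (11.9 to 41.8), and EDN3 at 0.917 and 0.310 CPM.

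Calmodulin and its partners, the binding targets of PCP4 and its kin, had 9 of 10 genes measured with none past 2-fold, where 15.5% of all genes were lower and 8.93% higher, and a median of -0.36. CALM2 was at 288 CPM with CHIR and 468 CPM with DMSO, CALM3 at 265 and 321 CPM and the kinase CAMK2D at 36.4 and 62.8 CPM. No adjusted p is given for this or any other list, since each group is 1 library.

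**Figure D4:**
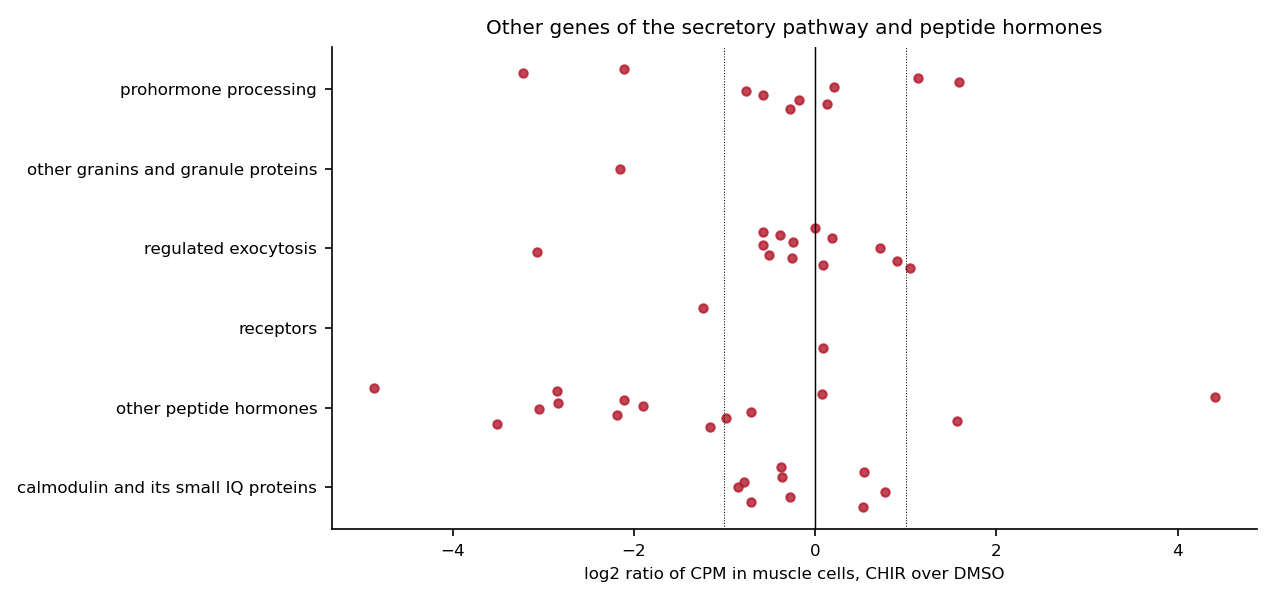
Log2 ratio of CPM in muscle cells, CHIR over DMSO, for each gene of 6 lists with 20 or more UMIs over both libraries; each point is 1 gene, the solid line marks equal levels and dotted lines 2-fold. Other peptide hormones lie mostly to the left, with PDYN alone far to the right at 21.3-fold, while calmodulin genes stay within 2-fold. The lists were chosen with earlier results of these data known.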

How the data were processed

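Live-sorted cells gave 3 droplet libraries that count transcript 3' ends, per the labels' protocols, which speak of day 15 even for the sample of day 11. The submitters' processing notes list Cell Ranger 6.1.1 and GRCh38, with R 4.1.0 and Seurat 4.3.0 added for day 11. The tables deposited by the authors hold UMI counts, as whole numbers that were not normalised. Libraries held 81076689 (CHIR), 65675862 (DMSO) and 75906387 (day 11) UMIs. The H3K27ac peaks are on hg19 per the same notes and were not used.

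A cell was kept from 500 genes, 1000 UMIs and up to 25% mitochondrial UMIs; 0 fell out. Scrublet (scanpy 1.11.5, expected rate 0.06) called 220 DMSO cells (5.48%), which were removed, 1 day 11 cell and 0 CHIR cells, so it failed in both of these, whose doublets remain. Gates were set on marker sums per 10000 UMIs with at least 3 markers detected: muscle 20, mesenchymal 20, endoderm 50 and endothelial 5. Cells past any 2 of the muscle, endoderm and endothelial gates, or past the muscle and mesenchymal gates, were mixed. Cells past the mesenchymal gate and only the endoderm or only the endothelial gate were called endoderm or endothelial. Between 10 and 20 on the muscle markers lay 577 CHIR, 626 DMSO and 461 day 11 cells, and between 20 and 40 lay 126, 419 and 389. TRH was at 2.29, 14.0 and 8.88 CPM just below that gate and 26.0, 43.4 and 16.0 CPM just above it.

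CPM is the summed count of a gene over all UMIs of the class, times 1000000. Intervals are exact (Poisson for CPM, Clopper-Pearson for shares and ratios). The ratio intervals were run on simulated Poisson counts, the model they assume. That run left out the clustering of UMIs in few cells, so it does not show how they hold for such counts. Ratios needed 20 UMIs over both classes, and a fold of 2 was used as the mark. Shares of all genes past that fold and medians of lists and of all genes had 0.5 UMI added to each count; the ratios of single genes had none added. Subsets of muscle cells needed 1 SHOX2 UMI, 2 UMIs of TBX2 and TBX3 together, or 5 UMIs per 10000 of NPPA, MYL2 or cycling markers. With 1 library per group no test was run. The alternatives were totals without mitochondrial and ribosomal genes, TMM factors (edgeR 4.0.16 in R 4.3.3), means of per-cell CPM, other gates, doublets kept and SHOX2 cells left out. Members and lists were chosen with earlier results of these data known. Named genes were the 6 members, up to 4 of each list by muscle UMIs, and the 3 genes nearest to each member by pattern; a few genes of the lists and panels are not reported here by name. Sequences and positions are from RefSeq; 3 of the promoters are printed.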

Additional observations from a re-analysis of the deposited data

Results flagged for a closer look

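NPY between DMSO and day 11 moved in opposite directions in 2 classes. It was lower with DMSO in muscle cells, with a ratio of 0.362 (8.04 CPM with DMSO and 22.2 CPM at day 11), and higher in mesenchymal cells, with a ratio of 5.17 (132 and 25.6 CPM). Both intervals leave out 1. With TMM factors the muscle ratio was 0.562, no longer past 2-fold, and the share of day 11 muscle cells with NPY was not told apart from background. The difference between the classes was not tested, since each group is 1 library. Only 15 endoderm cells were found with DMSO, against 83 at day 11, and 195 of the 228 NPY UMIs of those 15 came from 1 cell. No direction is therefore given for endoderm cells.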

How the results depend on the processing

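With 1 library per group, depth limits only the counting error, and nothing here shows how far 2 cultures of the same kind would differ. No paired analysis was possible because each single-cell group has 1 library. Over 10 alternatives, 455 member ratios were recomputed for 56 results: 348 stayed within their interval, 106 moved outside it and 1, past 2-fold, turned to the other side of 1. Another 9 crossed 1 from ratios that were not past 2-fold: TRH and CHGB in mesenchymal cells and NPY over all cells, DMSO over day 11, and TRH in muscle cells, CHIR over day 11, at 1.10 with TMM factors. Of the 386 that belong to results past 2-fold, 14 were no longer past it. In muscle cells, CHIR over DMSO, the TRH ratio was 0.252 with totals free of mitochondrial and ribosomal genes, 0.257 as a mean of per-cell CPM, 0.207 with a muscle gate of 40 and 0.257 without SHOX2 cells. CHGB was at 13.8 with a muscle gate of 40 and 10.4 with a mesenchymal gate of 40, and PCP4 at 4.31 with a mesenchymal gate of 10. With a fold of 1.5, 21% of genes were higher and 26.4% lower. The ratio past 2-fold that turned was CHGB in muscle cells, DMSO over day 11, at 0.969 with a muscle gate of 40 on few UMIs; the cause was not tested. Endoderm gates of 10, mesenchymal cells compared between libraries, leading genes and UMIs per marker UMI were added after seeing the data.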
